A study of Mus musculus with 16 samples.

Results

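Carbonic anhydrases were described on arrays that set kidney against liver of wild-type mice. The genes were taken by symbol, as Car followed by a number on a probe with 1 gene symbol, and each probe of a gene was kept apart. This gave 11 probes of 8 genes (Car1, Car2, Car3, Car11, Car12, Car13, Car14 and Car15) of 20419 probes and 9669 genes in all, and all 11 had enough values to be tested. Car5b, a mitochondrial carbonic anhydrase whose symbol ends in a letter, was added beside them with its 1 probe after its values had been seen and is not counted among the 11. The other 7 mouse genes of the family in RefSeq were not analysed here.

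The study hybridised RNA of 3 male C3HeB/FeJ mice aged 105 ± 5 days, all wild type and kept free of specified pathogens, to 16 2-colour cDNA arrays. Each of 7 kidney arrays compared the left kidney of 1 mouse with liver RNA pooled from 5 animals, and each of 9 liver arrays compared the dorsal liver lobe of 1 mouse with kidney RNA pooled from 5 animals. Mice 1, 2 and 3 had 3, 3 and 1 kidney arrays and 3 liver arrays each, and whether the pools held RNA of these mice is not stated. No animal was treated, and repeated arrays of a mouse and organ share 1 RNA.

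Carbonic anhydrases catalyse the reversible hydration of CO2 to bicarbonate and a proton. In the kidney, cytosolic and membrane-bound members serve the recovery of bicarbonate and the secretion of acid along the tubule. In the liver, members of the family supply bicarbonate to carboxylation reactions, and Car3 is an abundant protein of rodent liver, muscle and fat whose catalysis is slow.

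The promoters of the membrane-bound Car12 and Car15 are shown because their probes were, beside 1 probe of Car2, those with the clearest excess in kidney. Each run holds the 250 bases before the gene's start, 5′ to 3′ on the strand of the gene, from RefSeq on GRCm38.p6, at chr9:66713436-66713685 on the plus strand for Car12 and at chr16:17838187-17838436 on the minus strand for Car15. Capitals mark the matches to 5 motifs searched on both strands, the TATA box TATAAA, the CCAAT box CCAAT, the GC box GGGCGG, the hypoxia-response core ACGTG and the HNF1 half-site GTTAAT.
Car12: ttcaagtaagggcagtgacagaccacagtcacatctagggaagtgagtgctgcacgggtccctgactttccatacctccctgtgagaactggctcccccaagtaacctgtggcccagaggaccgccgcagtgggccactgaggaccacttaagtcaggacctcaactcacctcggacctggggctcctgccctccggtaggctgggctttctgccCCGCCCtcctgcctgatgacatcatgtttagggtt
Car15: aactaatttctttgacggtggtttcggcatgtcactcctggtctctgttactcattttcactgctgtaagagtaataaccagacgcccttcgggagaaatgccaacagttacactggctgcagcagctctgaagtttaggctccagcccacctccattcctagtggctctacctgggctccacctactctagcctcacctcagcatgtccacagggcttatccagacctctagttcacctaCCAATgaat
The Car12 window held 1 GC box, on the opposite strand 35 to 30 bases before the start, and the Car15 window held 1 CCAAT box, on the gene's strand 9 to 5 bases before the start. Neither match overlapped another motif. Over 32851 windows of the same length, 32.7% held GGGCGG, 33.8% held CCAAT, 12.4% held TATAAA, 16.6% held ACGTG and 6.43% held GTTAAT. The GC content was 59.2% for Car12 and 50% for Car15, against a median of 52.4% over all windows. A match describes these letters only.

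The values are log2 ratios turned to kidney over liver, so that a positive value means more in kidney, and no level of either organ can be read from them. Sample titles put the mouse first and the pool second, but the values ran the other way: Alb, the plasma albumin of hepatocytes, averaged 8.44 on kidney arrays and -7.57 on liver arrays as deposited, and Kap, an androgen-regulated protein of the proximal tubule, averaged -5.77 and 6.08. The pool was therefore taken as the numerator, against the titles. If the titles' order held instead, every kidney and liver word below would be exchanged and the sizes would stay. In whole organs, fewer cells of a type and less RNA per cell cannot be told apart. Arrays held 15480 to 19432 values. The median ratio was within 0.00267 of 0 on the 10 arrays of mice 1 and 3, while on the 6 arrays of mouse 2 it lay between -1.49 and -1.19 toward liver. Over probes with values in all mice and organs, mouse 2 stood apart from mice 1 and 3 by -1.19 in the median, by -0.27 for bright and by -1.49 for dim probes. A probe was called bright where at most 10% of its values, and dim where over 50%, recurred exactly on their array. This share was read from the same ratios and is not an intensity.

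At an adjusted p under 0.05 (limma, Benjamini-Hochberg over 18670 probes), 7 of the 11 carbonic anhydrase probes were called, against 12.6% of all probes. Of these, 3 were higher in kidney (all probes 5.18%), namely Car12, Car15 and 1 probe of Car2, and 4 were higher in liver (all probes 7.45%), namely both probes of Car3, Car1 and Car13. All 6 bright members were called, against 47.8% of bright probes in the series, and 1 of the 2 between was called (10.9% of such probes). None of the 3 dim members was (1.84% of dim probes), with adjusted p 0.0889 to 0.198 by limma. Of these, 1 Car2 probe had an unadjusted p of 0.0167. The classes were read from the same ratios as the calls, so these counts are not independent evidence about the members. The limma fit counted the 6 averages of mouse and organ as independent, though the same 3 mice gave both organs. Its SE and p-values may therefore be too small. The median estimate over the 11 probes was -0.75 and the median size 1.45, against -0.53 and 0.62 over all probes tested.

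**Figure D1:**
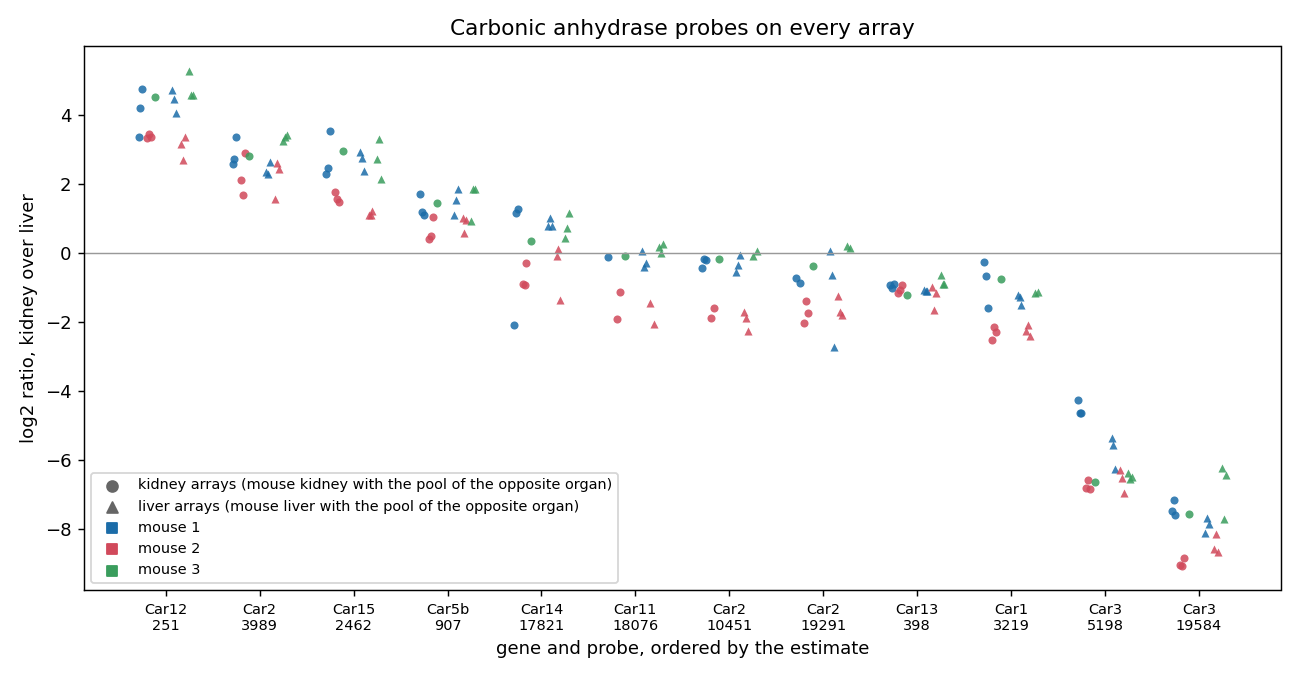
Log2 ratio, kidney over liver, of each carbonic anhydrase probe on each array, with kidney arrays left of liver arrays; points are single arrays. Car12, Car15 and the Car2 probe 3989 lie above 0 on all 16 arrays, and both Car3 probes lie below 0 on all of them.

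Car12, a membrane-anchored enzyme with its catalytic domain outside the cell, had the largest excess in kidney. Its ratio was 3.33, 3.44 and 4.73 at the lowest, median and highest of the 7 kidney arrays, and 2.68, 4.45 and 5.28 on the 9 liver arrays. By mouse 1, 2 and 3 it averaged 4.10, 3.37 and 4.53 on kidney arrays and 4.40, 3.06 and 4.81 on liver arrays. All arrays lay above 0, the liver arrays ran beyond the kidney arrays at both ends, and mouse 2 had the lowest average on each kind. The estimate was 4.05 (SE 0.29, adjusted p = 4.79e-05), a 16.5-fold excess in kidney, and the probe was the 50th of 18670 toward kidney.

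Car15, a GPI-anchored membrane enzyme of the mouse that humans have lost as a functional gene, was 4.96-fold higher in kidney. Kidney arrays gave 1.47, 2.29 and 3.54 and liver arrays gave 1.08, 2.38 and 3.30 (lowest, median and highest). Mice averaged 2.76, 1.60 and 2.95 on kidney arrays and 2.69, 1.13 and 2.72 on liver arrays, with mouse 2 below both others. The estimate was 2.31 (SE 0.31, adjusted p = 0.0016). Without mouse 1 it was 2.10 and no longer called (adjusted p = 0.0597).

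Car14, a membrane-bound enzyme known from the apical and basolateral membranes of the proximal tubule, showed no called difference. Its ratio ran from -2.09 to 1.25 with a median of -0.30 on kidney arrays, and from -1.36 to 1.14 with a median of 0.71 on liver arrays. The kidney arrays of mouse 1, which share 1 RNA, lay at -2.09, 1.16 and 1.25. Car14 lay above 0 on 10 of 16 arrays, with wide overlap between the kinds. The estimate was 0.15 (SE 0.27, adjusted p = 0.659). It was 0.60 after centring each array on its median (adjusted p = 0.00891), and 0.51 without mouse 2 (adjusted p = 0.0147). With the median of hybridisations it was 0.33 and not called.

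Car2, the fast cytosolic enzyme that is widely expressed and abundant in intercalated cells of the collecting duct, was the member whose probes disagreed. Probe 3989 gave 1.67, 2.72 and 3.35 on kidney arrays and 1.55, 2.60 and 3.41 on liver arrays (lowest, median and highest), above 0 on all 16. Its estimate was 2.64 (SE 0.24, adjusted p = 0.00019), a 6.24-fold excess in kidney. The other probes, 10451 and 19291, recurred on 77.8% and 87.5% of values and were dim. They gave -0.75 (SE 0.34, adjusted p = 0.15) and -0.91 (SE 0.30, adjusted p = 0.0889). After centring they were nearer to 0, at -0.30 and -0.46, and without mouse 2 they were at -0.20 and -0.53, not called in either setting. Probe 3989 lay above 10451 by 3.39 ± 0.55 and above 19291 by 3.55 ± 0.32 (SD over 6 averages of mouse and organ), in every average, while the 2 dim probes differed by 0.16 ± 0.43. Averaged to 1 value a gene, Car2 was at 0.47 (SE 0.30, adjusted p = 0.258), so the gene's call rested on which probe was read. It also rested on the scaling, since the average was called after centring (0.92, adjusted p = 0.0039) and with mouse 2 aligned by signal (0.82, adjusted p = 0.00286).

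Car3 stood furthest of the members from 0. The probe 19584 had -9.07, -7.61 and -7.16 on kidney arrays and -8.68, -7.87 and -6.23 on liver arrays (lowest, median and highest), and the probe 5198 had -6.86, -6.58 and -4.26 on kidney arrays and -6.97, -6.39 and -5.36 on liver arrays. All 16 arrays of both probes lay below 0, and the 2 kinds of array overlapped. The estimates were -7.86 (SE 0.31, adjusted p = 2.38e-06) and -6.12 (SE 0.33, adjusted p = 1.1e-05), 232-fold and 69.6-fold lower in kidney. They were the sixth and the 42nd of 18670 probes toward liver, and probe 5198 lay nearer to 0 than 19584 in all 6 averages, by 1.74 ± 0.94 (SD). Mouse 1 gave the smallest size for 5198 on kidney arrays, at -4.52, against -6.75 in mouse 2 and -6.64 in mouse 3.

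Car1, a cytosolic enzyme abundant in red blood cells, was 2.73-fold lower in kidney. Kidney arrays gave -2.52, -1.59 and -0.28 and 8 liver arrays gave -2.42, -1.40 and -1.13 (lowest, median and highest). All 15 arrays lay below 0, with mouse 2 lowest on each kind. The estimate was -1.45 (SE 0.29, adjusted p = 0.0137), but with the mouse number as a block it was not called among all probes (adjusted p = 0.0735). The same probe with the same block was called in the fit over genes, which has fewer tests and a smaller SE (adjusted p = 0.0223). It was also not called without mouse 1 (-1.62, adjusted p = 0.115) or without mouse 3 (-1.69, adjusted p = 0.0726), while without mouse 2 it was -1.02 and called. With the block, the SE was nearly the same for all probes shown, 0.498 to 0.502. A call lost there therefore follows the size of the estimate and not a probe's own spread. The block was set on the scale of sample over pool. It could not take up a shift with the same sign in kidney over liver on both kinds of array, as in mouse 2.

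Car13, another cytosolic enzyme, had the least spread between mice of the members. Its averages were -0.96, -1.07 and -1.21 on kidney arrays and -1.10, -1.27 and -0.82 on liver arrays for mice 1, 2 and 3. The estimate was -1.07 (SE 0.20, adjusted p = 0.0106), 2.10-fold lower in kidney, and all 16 arrays lay below 0. Mouse 2 differed from the others by -0.15 here, against -1.24 for Car12. After centring, mouse 2 lay at 0.31 on kidney arrays and 0.07 on liver arrays, the estimate was -0.62 and it was not called (adjusted p = 0.074). It was not called with the block, where its SE was 0.50 (adjusted p = 0.296), without mouse 1 (adjusted p = 0.161) or without mouse 3 (adjusted p = 0.16).

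Car11, which lacks the catalytic residues of active members, was dim and at -0.60 (SE 0.33, adjusted p = 0.198), with 3 of 12 arrays above 0. After centring it was at -0.15 and without mouse 2 at -0.08, not called in either setting. Car5b, which supplies bicarbonate inside mitochondria, had 0.40, 1.08 and 1.69 on kidney arrays and 0.58, 1.08 and 1.85 on liver arrays (lowest, median and highest), above 0 on all 16. Its estimate was 1.21 (SE 0.23, adjusted p = 0.0103), 2.31-fold higher in kidney. The call was lost with the block (adjusted p = 0.201), without mouse 1 (adjusted p = 0.176) and without mouse 3 (adjusted p = 0.171).

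Ordered by the ratio, the probes ran from Car12 through Car2 (3989), Car15, Car5b and Car14 to Car11, the dim Car2 probes, Car13, Car1 and Car3. Car12 lay above Car2 (3989) by 1.41 ± 0.41 (SD) and in all 6 averages, as Car15 did above Car5b by 1.10 ± 0.44 and Car1 above Car3 (5198) by 4.67 ± 0.79. Car2 (3989) and Car15 differed by 0.33 ± 0.52, with 4 of 6 averages positive, the dim Car2 probe 19291 and Car13 by 0.16 ± 0.64 and Car13 and Car1 by 0.38 ± 0.65. The differences of the last 3 pairs were no larger than their spread. Car13, Car1, Car3 and Car2 are neighbours in that order on chromosome 3 in RefSeq, with only 2 pseudogenes and 1 long non-coding RNA between them, and their probes fell on both sides of 0. Car14 also lies on chromosome 3, Car11 on 7, Car12 on 9, Car15 on 16 and Car5b on X.

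**Figure D2:**
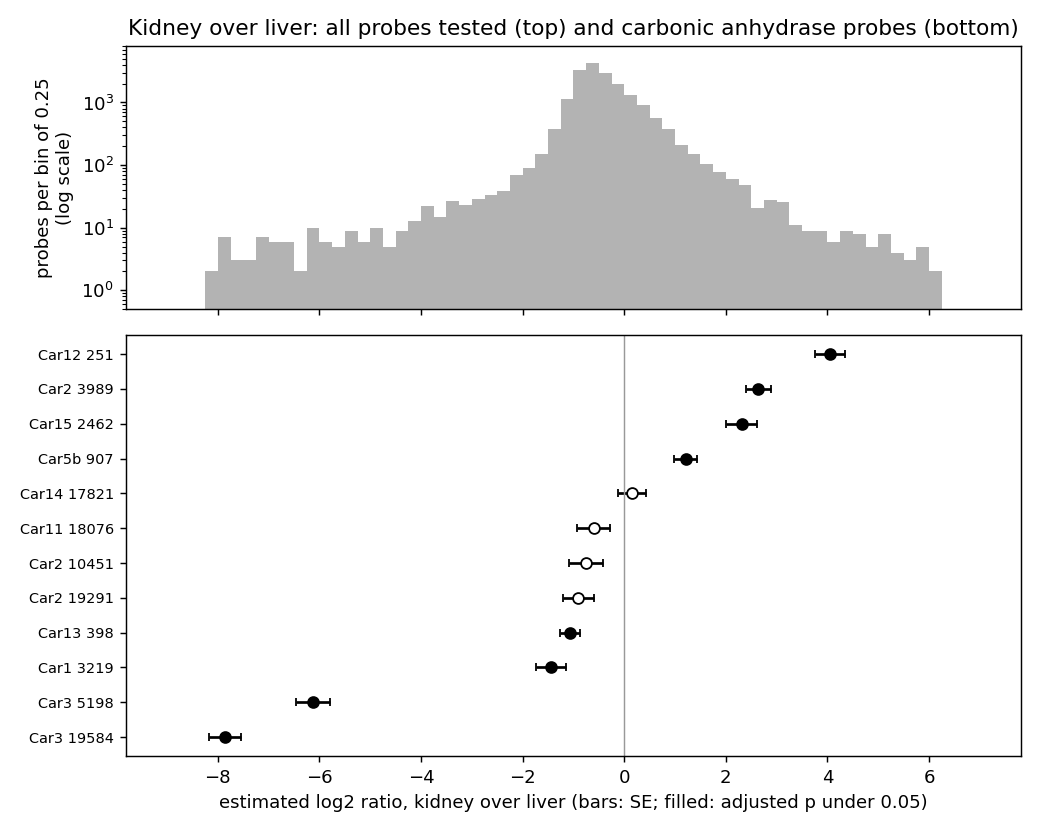
Estimated log2 ratio, kidney over liver, with its SE for each of the 11 carbonic anhydrase probes and Car5b (bottom), below the number of all 18670 probes per bin of the estimate on a log axis (top); filled points have an adjusted p under 0.05. Both Car3 probes lie in the far tail toward liver and Car12 in the tail toward kidney.

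The array-kind term was called for 0 of 18670 probes by limma, or 0%, with 46 probes, or 0.246%, at an unadjusted p under 0.05, and no carbonic anhydrase was among them. The members' difference between kidney arrays and liver arrays ran from -0.48 for Car14 to 0.30 for the Car3 probe 5198, with SE from 0.407 to 0.675 and unadjusted p from 0.401 to 0.980. That term leaves out that both kinds of array come from the same mice. Within mice, an alternative chosen after seeing the data, 12 of 18508 probes (0.0648%) were called by limma, with 8.22% at an unadjusted p under 0.05. No member was called there, and 1 had an unadjusted p under 0.05. It was Car14, with kidney arrays below liver arrays by -0.75, -0.27 and -0.41 in mice 1, 2 and 3 (mean -0.48, SE 0.18, unadjusted p = 0.0267, adjusted p = 0.597). The mouse 1 value rests on 1 kidney array at -2.09. The other kidney arrays of mouse 1, at 1.16 and 1.25, lay above its liver average of 0.85. Car15 had kidney arrays above liver arrays in each mouse, by 0.08, 0.47 and 0.24 (adjusted p = 0.696). Between mice, on arrays centred on their median, 2 of 11 members differed on kidney arrays (all probes 47.9%), namely Car13 (adjusted p = 0.000365) and the Car3 probe 5198 (adjusted p = 0.00106). On liver arrays 3 of 11 did (all probes 38.7%), namely Car13 (adjusted p = 0.00177), Car2 (3989; adjusted p = 0.0129) and Car3 (5198; adjusted p = 0.00874). Arrays of 1 mouse share an RNA, so these tests measure differences of RNA samples. On kidney arrays without mouse 2, the test set 3 arrays of mouse 1 against 1 of mouse 3, and Car11 had too few values. A lack of calls there does not show that the mice agree. Without mouse 2, 0 members differed on kidney arrays (0.0208% of all probes) by limma's F, with 1 at an unadjusted p under 0.05, the Car3 probe 5198 at 0.000329, and 1 on liver arrays (1.05%), Car2 (3989; adjusted p = 0.046). On values as deposited, 8 members differed on kidney arrays (73.9% of all probes) and 9 on liver arrays (86%). Car13 was not among them (adjusted p = 0.603 on kidney arrays and 0.11 on liver arrays), so its difference between mice was called only on centred arrays.

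The number of members called moved with the scaling, between 7 and 10. Because 7 of 11 were already called on values as deposited, this number had less room to rise than that of all probes. It was 7 after centring (4 higher in kidney and 3 in liver; 29.2% of all probes called), 8 with mouse 2 aligned by signal (34.5%) and 10 with quantile normalization (72.9%). It was 5 on kidney arrays alone (4.12%), 6 on liver arrays alone (7.93%) and 5 with the block (5.23%). It was 4 without mouse 1 (4.65%), 8 without mouse 2 (32.8%) and 5 without mouse 3 (4.45%). With dim probes left out 7 of 8 members were called (26.6%), and 7 of 11 were with trend and robust variances (15.4%), with values required in all mice (16.3%) and with the median of hybridisations (12.4%). Car12, Car2 (3989) and both Car3 probes were called in each of these settings. Quantile normalization left the median of all probes toward liver, at -0.55, against -0.06 after centring.

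**Figure D3:**
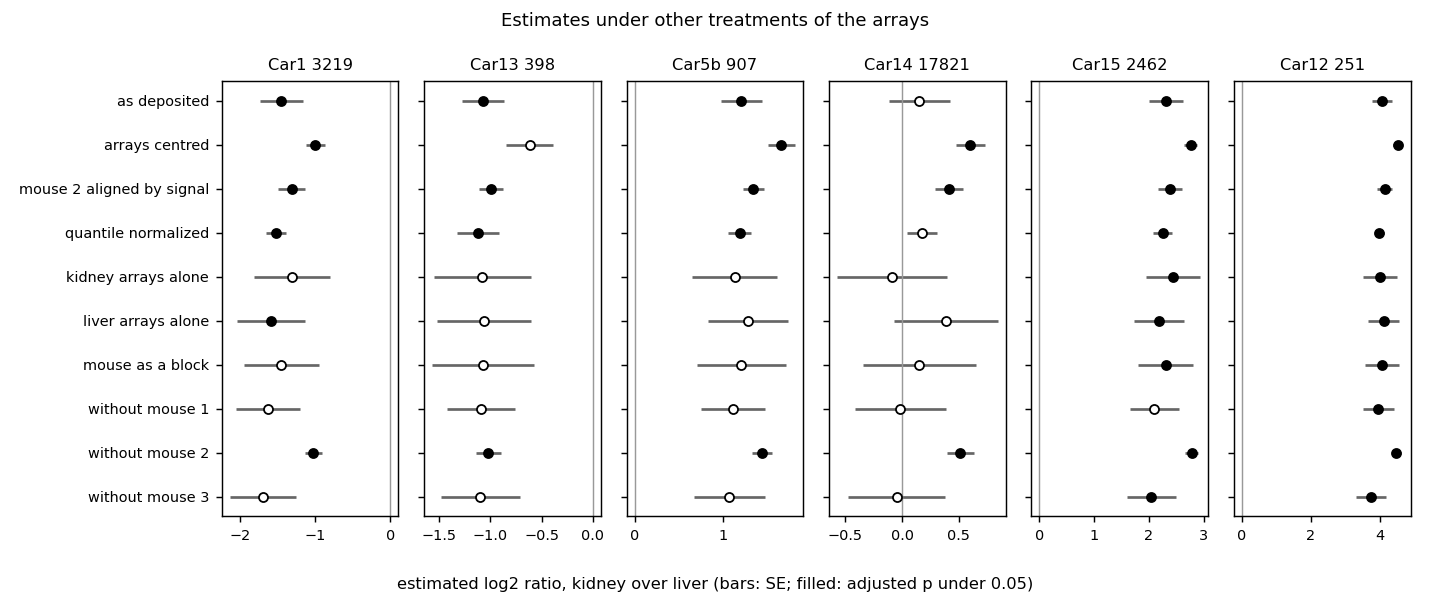
Estimated log2 ratio, kidney over liver, of the probes of Car1, Car13, Car5b, Car14, Car15 and Car12 under 10 settings; bars are SE and filled points have an adjusted p under 0.05. Car12 is called in all of them, Car15 is not called without mouse 1, and Car14 is called in 3 of them, at 0.60 with arrays centred, 0.41 with mouse 2 aligned by signal and 0.51 without mouse 2.

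Of all 9047 genes tested 14.4% were called, 5.56% higher in kidney and 8.88% higher in liver, and the enzymes' partners are read against these shares. Of 11 tested genes of bicarbonate and ammonia transport, 3 rose in kidney and 0 fell, with a median of -0.14 (all genes -0.48). Slc26a4, the chloride and bicarbonate exchanger pendrin, was at 2.54 (SE 0.25, adjusted p = 0.000194), Cftr, a chloride channel, at 1.37 (SE 0.21, adjusted p = 0.00288) and Rhcg, an ammonia channel, at 1.47 (SE 0.37, adjusted p = 0.0374; with the block adjusted p = 0.132). Of 16 genes of proton transport, 4 rose and 1 fell, with a median of -0.22. The proton pump subunits Atp6v1g3 and Atp6v1d were at 3.27 (adjusted p = 0.00033) and 2.35 (adjusted p = 0.000142), with Slc9a8, a sodium and proton exchanger, at 2.05 and Atp6v1c2 at 1.53. The subunit Atp6v0b fell, at -3.20 (SE 0.45, adjusted p = 0.00163).

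Of 10 bicarbonate-using carboxylases and partners, 0 rose and 3 fell (median -0.31), led by Cps1, the first enzyme of the urea cycle, at -3.07 (SE 0.29, adjusted p = 0.00016). Acaca, which makes malonyl-CoA, was at -1.02 (adjusted p = 0.0486; with the block adjusted p = 0.188) and Hlcs, which attaches biotin to carboxylases, at -0.94 (adjusted p = 0.0252; with the block adjusted p = 0.232). Of 5 genes of ammoniagenesis 1 rose, the glutamate transporter Slc1a1 at 2.19 (adjusted p = 0.00016), and 2 fell, Glud1 at -1.03 (with the block adjusted p = 0.18) and Got2 at -0.91 (with the block adjusted p = 0.249).

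Markers of cells that can carry these enzymes were read beside them. Of 9 genes of intercalated cells, the acid-base cells of the collecting duct, 4 rose and 0 fell (median 0.62), led by Atp6v1g3, Slc26a4 and Atp6v1c2. These 3 and Rhcg were already counted in the transport lists above, so the rises are the same values. Slc4a1, at -1.17 and not called, is in this list too. Of 4 genes of principal cells 2 rose, Aqp2 at 2.86 and Fxyd4 at 1.57. None of 7 red blood cell genes was called by limma (median -0.58); Bpgm was highest at 0.66 and Slc4a1 lowest at -1.17 (adjusted p = 0.0523), and no adult globin probe was tested. Both were called after centring, Bpgm at 1.11 (adjusted p = 0.00211) and Slc4a1 at -0.60 (adjusted p = 0.0123). For Car1, a red cell enzyme, the part of red cells in its ratio was not tested. Of 12 skeletal muscle genes only Tnnc2 was called, at -1.07 (adjusted p = 0.0135; with the block adjusted p = 0.154), and of 8 adipocyte genes Lpl (1.73) and Fabp4 (1.54) rose while Ucp1 (-2.81) and Pnpla2 (-2.04) fell. Ucp1 had no value on kidney arrays of mouse 1 and too few values elsewhere to give a recurring share. For Car3, which muscle and fat also carry, their part in its ratio was not tested. In all, 12 of 13 proximal tubule genes rose (median 4.28; Kap, Miox and Cubn led), 20 of 23 hepatocyte genes fell (median -6.80), as did 2 of 5 pericentral genes (Oat -2.09, Gstm3 -1.81) and 3 of 6 periportal genes (Arg1 -5.34, Cyp2f2 -4.92, Cps1 -3.07). The hepatocyte genes with the largest change were Ahsg (-8.01), Alb (-7.89) and Fgb (-7.81). The hepatocyte and proximal tubule lists include genes used to set the direction, so their sides are not independent evidence.

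These list counts moved with the scaling, which shifted the median of all genes from -0.48 on values as deposited to -0.01 for centred arrays and -0.03 with mouse 2 aligned by signal. Bicarbonate and ammonia transport had 4 genes higher and 2 lower in kidney under either scaling, with medians of 0.31 after centring and 0.30 with the alignment. The carboxylases and partners had 1 higher and 3 lower after centring (median 0.15), and 3 higher and 4 lower with the alignment (median 0.16). Proton transport had 7 higher and 1 lower after centring (median 0.23), and 6 higher and 2 lower with the alignment (median 0.20). The negative medians of these 3 lists therefore held on uncentred values only. Ammoniagenesis had 1 higher and 0 lower after centring, and 1 higher and 2 lower with the alignment. Intercalated cells had 5 higher and 1 lower and red blood cells 1 higher and 1 lower under either scaling. Skeletal muscle had 1 higher and 1 lower after centring, and 1 higher and 4 lower with the alignment.

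**Figure D4:**
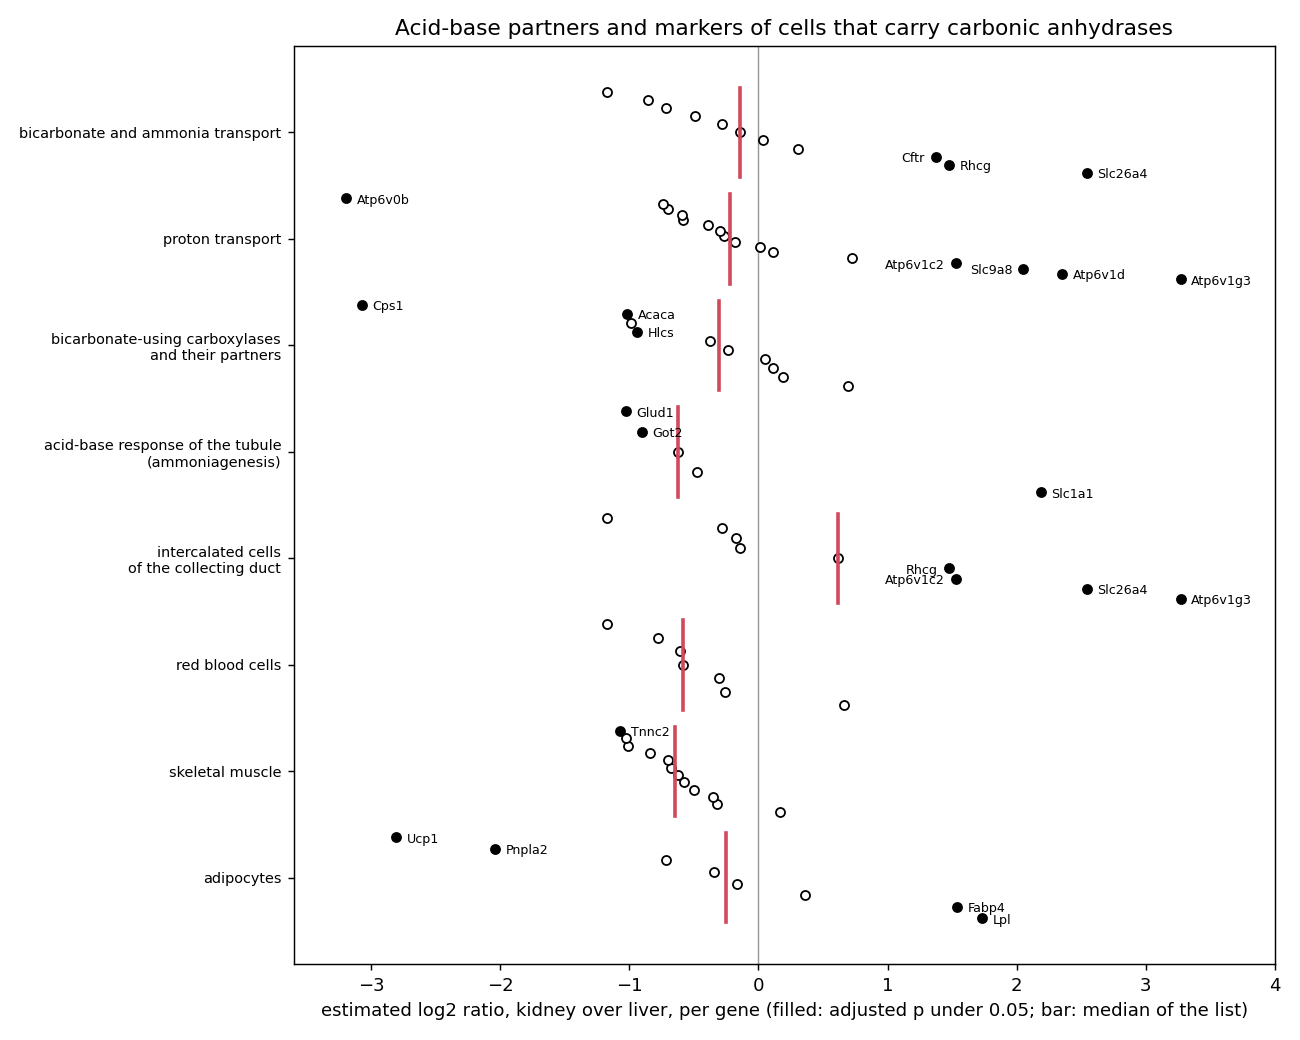
Estimated log2 ratio, kidney over liver, of genes in lists of acid-base partners and of markers of cells that carry carbonic anhydrases; each point is a gene, filled where the adjusted p is under 0.05, and bars are list medians. Of the 8 lists drawn, intercalated cell genes have the highest median, 0.62, and red blood cell genes have no filled point.

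The genes whose 6 averages lay closest to those of Car12 were Htra1, Slc6a18, Slc22a6, Thg1l and Trnp1, with root mean square differences of 0.26, 0.33, 0.38, 0.44 and 0.44 among 8688 probes compared. For Car1 they were Fxyd2 (0.18), Igfbp6 (0.18), Mark1 (0.22), Morn5 (0.22) and 2700049A03Rik (0.23), with estimates from -1.51 to -1.27. The Fxyd2 and Morn5 probes recurred on 55.6% of values and were dim. The averages were uncentred, so a near gene has a similar ratio and shift of mouse 2, and shared regulation was not tested. Both Car3 probes tied in their recurring share and are given apart. Probe 19584 was closest to Ahsg (0.33), Mup3 (0.37), Hp (0.42), Mug-ps1 (0.44) and Alb (0.47), and probe 5198 to Psap (0.50), Pcdh18 (0.59), Serpina1b (0.71), Orm1 (0.73) and Ambp (0.74).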

How the data were processed

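The deposited values are ratios on a log2 scale. Per the labels, slides were scanned on a GenePix 4000A, GenePix Pro 3.0 gave mean intensities with background subtracted, and ratios were normalised by the authors to a median of 1, which the deposited values show on the 10 arrays of mice 1 and 3 and not on the 6 of mouse 2, from 20 µg of RNA a sample in 2 dyes. Which dye marked which sample is not given in the sources used here. The log base was read from the values: of 144 spacings from the most frequent values, 140 were log2 ratios of whole numbers up to 10 (tolerance 0.0001), 16 log10 and 0 natural log. No 2 arrays held identical values. Raw intensities were not used, and the number of arrays limits the precision.

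Gene names came from the platform's probe annotation (11723 probes with 1 symbol, 11590 matched to RefSeq). Deposited values were used uncentred. Repeat arrays were averaged within mouse and organ, and these 6 averages entered limma 3.58.1 (R 4.3.3), with array kind as a covariate. They were counted as independent, though each mouse gave a kidney and a liver average. A probe needed 2 mice per organ, and p-values were adjusted by Benjamini-Hochberg. Genes of lists were tested on averages of their probes. The code was checked on simulated data. The members and lists were chosen with earlier results of these data known.

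Named genes followed a rule: every carbonic anhydrase probe, the 3 called genes with the largest change in each list and those against its median, the highest and lowest of a list with no call, and the 5 nearest genes of Car1, Car3 and Car12. Organs with 1 mouse number come from the same animal per the labels, so the number was used as a block in an alternative. The block was set on the scale of sample over pool and does not take up the shift of mouse 2. For each mouse, the deviation of its average from the mean of the 3 mice was compared between kidney arrays and liver arrays. On the scale of sample over pool, these deviations correlated at -0.591, -0.795 and -0.585 over 14688 probes for mice 1, 2 and 3. On the scale of kidney over liver the sign turns, so a mouse tended to deviate the same way on both kinds of array. Other alternatives changed the scaling, filter, variance model, summary of hybridisations, array kind or left out a mouse.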

Additional observations from a re-analysis of the deposited data

Results flagged for a closer look

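Of 24 groups of arrays checked, 1 held an array far from the others: for Car14, 1 liver array of mouse 2 lay at -1.36, while the other 8 liver arrays lay between -0.08 and 1.14. Its gap to the nearest array was 0.512 of the whole range, against a critical value of 0.493. Chance marks about 1 in 20 groups. A group held the arrays of all mice of an organ, so repeat arrays of 1 RNA were not checked apart. The kidney arrays of mouse 1 for Car14 lay at -2.09, 1.16 and 1.25. Its SD between hybridisations, 0.95, was the largest of the probes shown.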

How the results depend on the processing

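The signs of Car12, Car2 (3989), Car15, Car1, Car13, Car5b and Car3 held in every setting tried. Over all probes, 2358 calls became 5445 with each array centred on its median, 13609 with quantile normalization and 6443 with mouse 2 aligned by signal. They became 774 on kidney arrays alone, 1543 on liver arrays alone and 700 to 4873 with a mouse left out. With mouse as a replicate block, paired on the scale of sample over pool, they became 968. The cause of these changes was not tested. Of the calls, 41.0% were higher in kidney, against 61.1% after centring, 14.5% with quantile normalization, 54.7% with the alignment and 52.5% with trend and robust variances. Centring moved the median of all probes from -0.53 to -0.06, while quantile normalization left it at -0.55. The members called, 7, became 4 to 8 with a mouse left out; those higher in liver, 4, became 7 with quantile normalization, 2 on kidney arrays alone, 2 with the block and 2 to 4 with a mouse left out, and those higher in kidney, 3, became 2 to 4. Members differing between mice, 2 on kidney arrays and 3 on liver arrays, became 8 and 9 on values as deposited and 0 and 1 without mouse 2. Car14, at 0.15, turned to -0.087 on kidney arrays alone, and with a mouse left out it ran from -0.048 (mouse 3) and -0.013 (mouse 1) to 0.515 (mouse 2). Its kidney average of mouse 1 includes the array at -2.09, whose repeats lay at 1.16 and 1.25. Of 153 single-probe values, 128 kept direction and call, 16 lost and 6 gained a call, and 3 reversed. Over all probes, the block changed no other call of the probes shown than those of Car1, Car13 and Car5b. The test of array kind within mice, also with mouse as a replicate block, called 0 members, as the main test did. Only dim Car2 and Car11 probes gained a call with quantile normalization. Dim probes limit what can be read for Car11 and 2 probes of Car2.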
